A study of Mus musculus with 12 samples.

Results

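The genes described here are 10 molecular chaperones and chaperone partners of mouse hind limb muscle: Hspa1a, Hspa1b, Hspa8, Hsph1, Dnajb1, Hsp90aa1, Hsp90ab1, Bag3, Hspd1 and Hspe1. They were taken by symbol, from a list chosen with earlier results of these data known. All 10 were found among the 22923 distinct symbols listed for each library. Each symbol occurred on 1 row only, and all 10 lay above 1 FPKM in all 12 libraries, so that none was lost to the filter on low values. FPKM counts fragments per length of transcript and per size of library, and can therefore be compared between genes.

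HSP70 proteins bind unfolded stretches of a client protein and release them in a cycle driven by ATP. J-domain proteins of the HSP40 class deliver clients and start the cycle, while nucleotide exchange factors such as HSP110 and the BAG proteins end it. HSP90 takes over clients that are nearly folded, among them kinases and steroid receptors, and the HSP60/HSP10 pair folds proteins inside mitochondria. Many of these genes are targets of heat shock factor 1, which binds repeated GAA and TTC units in their promoters. In muscle, BAG3 works with HSP70 and the small heat shock protein HSPB8 at the Z-disc, where damaged proteins of the contracting fibre are handed over for degradation. αB-crystallin and HspB2 are small heat shock proteins that hold clients without using ATP.

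The study compared mice lacking αB-crystallin (Cryab) and HspB2 (Hspb2) in all tissues with wild-type littermates, to ask whether these small heat shock proteins act in obesity brought on by diet. The samples were proximal hind limb muscle from 12 male mice of FVB background, all 22 weeks of age. There were 3 mice in each of 4 groups: wild-type (WT) on normal chow, WT on high fat diet, knockout (KO) on normal chow and KO on high fat diet. The titles call the WT mice Flox. The knockout removes the neighbouring Cryab and Hspb2 genes together, so that an effect of either gene alone cannot be told apart.

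In 6 samples the genotype field goes against the title: WT high fat 1, 2 and 3, KO chow 3, and KO high fat 1 and 2. Grouping followed the titles. Cryab lay between 412 and 837 FPKM in the 6 libraries titled WT and between 0.845 and 1.75 FPKM in the 6 titled KO. Hspb2 lay between 81.5 and 103 FPKM in the former and between 0.353 and 1.92 FPKM in the latter. Each library therefore stood with the genotype of its title. Fibre markers summed to between 34298 and 80711 FPKM, although 2 of the 8 on the list, Acta1 and Myh4, are listed at 0 in some libraries. Of the 10 lymphoid markers 9 were listed, and their sum was 57.9 FPKM in WT chow 2, 66.8 FPKM in KO chow 1 and 69.3 FPKM in KO chow 3, against 5.86 FPKM or less in the others. WT high fat 2 held 33.9 FPKM of skin and hair markers, against 1.67 FPKM or less elsewhere. In KO chow 3 a single microRNA row held 95.5% of the summed FPKM, against at most 5.52% for the largest row of any other library, and without it the sum was 484689 FPKM, beside 477029 to 657984 FPKM in the others. Adipocyte markers ranged from 3.43 to 627 FPKM. In whole muscle, fewer cells of a type and less RNA per cell cannot be told apart. No reads were counted in the files, and depth in reads is unknown.

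The promoters of the stress-inducible HSP70 genes are shown because their similarity bears on how far these genes can be measured apart. The RefSeq windows used run from 250 bases before to 50 bases after each start in GRCm38.p6, and 7 of the 10 members had a window. Hspa1a and Hspa1b lie on the minus strand of chromosome 17, each with 1 exon, from 34969190 to 34972156 and from 34956436 to 34959238. The stretches below are the 150 bases before each start, 5′ to 3′ on the minus strand, chr17:34972157-34972306 for Hspa1a and chr17:34959239-34959388 for Hspa1b. Capitals mark the pair of inverted units that heat shock factors recognise.
Hspa1a: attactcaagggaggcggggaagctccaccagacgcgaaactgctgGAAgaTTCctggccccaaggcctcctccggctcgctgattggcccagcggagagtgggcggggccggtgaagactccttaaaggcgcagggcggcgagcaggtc
Hspa1b: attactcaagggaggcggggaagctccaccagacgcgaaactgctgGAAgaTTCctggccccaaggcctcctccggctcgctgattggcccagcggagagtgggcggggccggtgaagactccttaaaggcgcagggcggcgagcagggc

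These stretches shared 149 of 150 bases, and the full upstream windows shared 247 of 250. The coding sequences, of 1923 bases in Hspa1a and 1926 bases in Hspa1b, were 99.4% identical once aligned. Of all 100-base windows of the Hspa1a coding sequence, 68.3% were found whole in Hspa1b. How reads that fit both genes were divided is not given in the sources used here, and the separate levels of Hspa1a and Hspa1b are uncertain for that reason. Their sum depends little on how such reads were divided between these genes of similar length. It would still change if shared reads were dropped or counted for both.

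Hspd1 and Hspe1, the HSP60 and HSP10 genes, stand head to head on chromosome 1. Hspd1 runs on the minus strand from 55077835 to 55088243 and Hspe1 on the plus strand from 55088132 to 55091307. Their annotated spans overlap by 112 bp, and the library kit does not mark strand, so that reads in the overlap cannot be assigned to either gene. The 30 bases at chr1:55088053-55088082, plus strand, lie between -95 and -66 of the RefSeq start of Hspe1. That start lies downstream of the start of the annotated span given above. The same 30 bases lie in a Hspd1 window and hold the densest run of units found in the member promoters, again in capitals.
Hspe1: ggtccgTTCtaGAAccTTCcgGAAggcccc

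The units were searched on both strands as GAANNTTC and TTCNNGAA, which overlap where 3 or more units follow each other. At least 1 such pair was present in 15.1% of 32851 RefSeq windows and in 6 of the 7 member genes with a window, Dnajb1 being the one without. A run of 3 alternating units was present in 0.603% of windows and in 3 member genes, Hspd1, Hspe1 and Hsph1. The shares count windows, whereas a member gene counted if any of its windows matched, with 10 windows for the 7 genes. Hspd1 and Hspe1 share their run, and Hspa1a and Hspa1b are near copies, so the members are not separate cases. A match describes the letters of the window and is not evidence of binding in this muscle.

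The 10 genes differed far more from each other than any of them did between groups. Hspa8, the constitutive cytosolic HSP70, was highest at 649 FPKM averaged over the 12 libraries. Hsp90ab1, the constitutive HSP90β, followed at 553 FPKM and was below Hspa8 in all 12 libraries, although their ranges over libraries overlap. Hspd1 at 98.2 FPKM and Hspe1 at 97.9 FPKM could not be ordered, since Hspd1 was the higher in 7 of 12 libraries. Bag3 averaged 69.1 FPKM, Hsp90aa1 26.9 FPKM and Hsph1 24.0 FPKM, and Hsp90aa1 exceeded Hsph1 in 8 of 12 libraries. At the low end Hspa1b averaged 8.66 FPKM, Dnajb1 7.56 FPKM and Hspa1a 6.88 FPKM, with overlapping ranges. The only gap between neighbouring ranges fell between Hsp90ab1, whose lowest library held 431 FPKM, and Hspd1, whose highest held 131 FPKM.

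**Figure D1:**
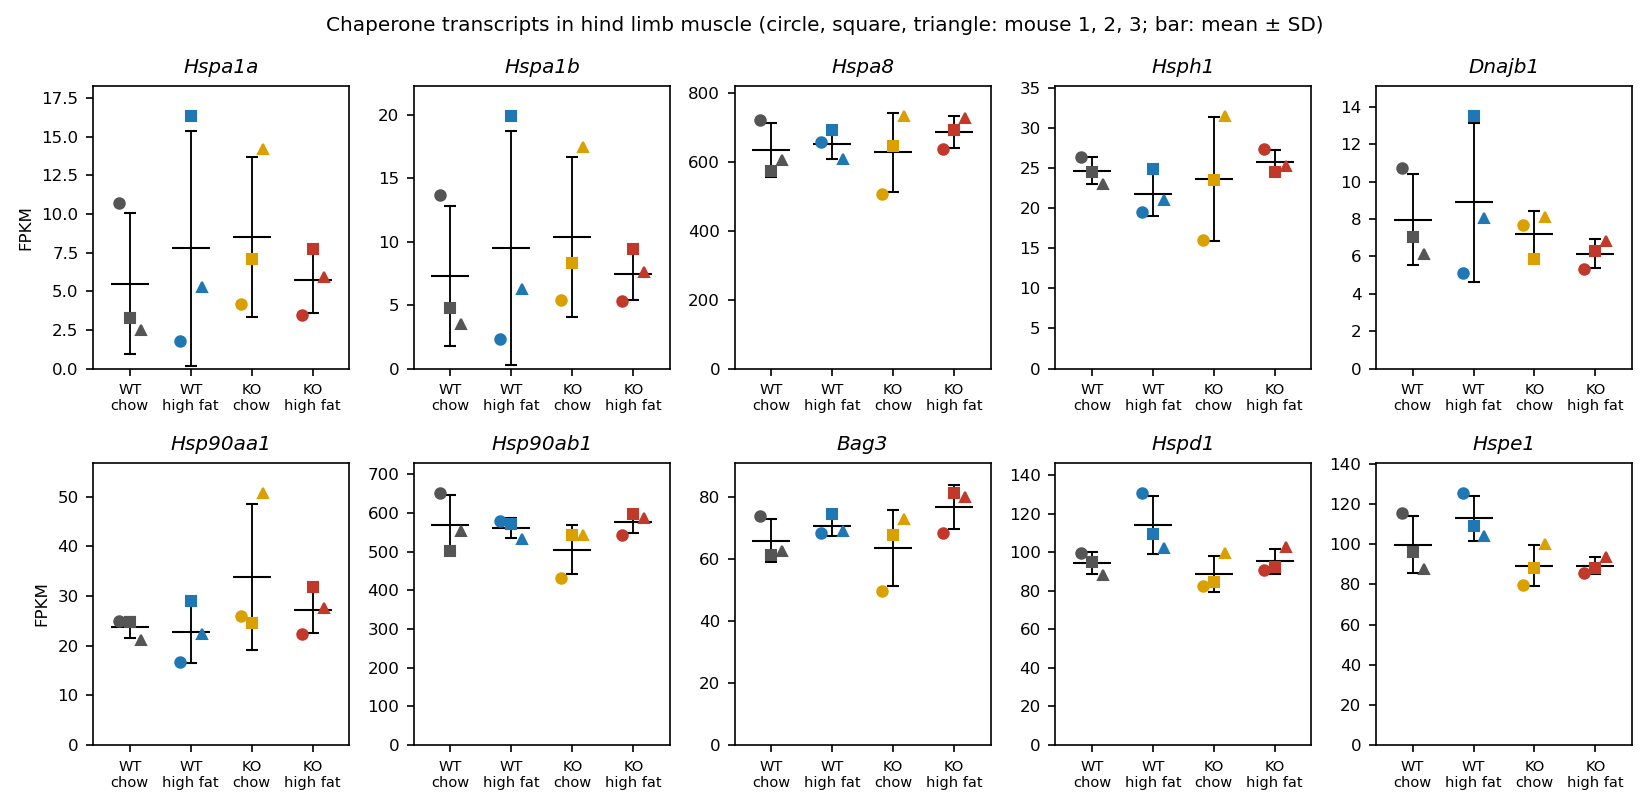
FPKM of each of the 10 chaperone genes (vertical axes, each from 0) in the 12 libraries, by group; symbols are mice 1 to 3 and bars the group mean ± SD (n = 3). Hspa1a and Hspa1b spread from 1.76 to 16.3 FPKM and from 2.30 to 19.9 FPKM, whereas Hspa8 stays between 505 and 731 FPKM.

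Hspa1a and Hspa1b encode nearly the same stress-inducible HSP70, and they varied more between mice of a group than between groups. Hspa1a measured 10.7, 3.29 and 2.48 FPKM in the 3 chow-fed WT mice and 1.76, 16.3 and 5.30 FPKM in the 3 high-fat-fed WT mice. It measured 4.18, 7.09 and 14.2 FPKM in KO mice fed chow and 3.49, 7.76 and 5.91 FPKM in KO mice fed high fat. Each group held at least 1 mouse at or below 4.18 FPKM, all 4 groups overlapped, and their means lay between 5.501 and 8.49 FPKM. The sum of Hspa1a and Hspa1b ran from 4.05 FPKM in WT high fat 1 to 36.2 FPKM in WT high fat 2, which are mice of the same group. The highest libraries for this sum were WT high fat 2, KO chow 3 with 31.7 FPKM and WT chow 1 with 24.4 FPKM, from 3 different groups. The ratio of Hspa1b to Hspa1a stayed between 1.18 and 1.53. Within groups the SD was 0.93 for Hspa1a and 0.91 for Hspa1b on the log2(FPKM + 1) scale, above that of 99.0% and 98.9% of the 11945 genes tested, where the median gene had 0.15. On this scale the KO minus WT difference in Hspa1a on normal chow was 0.62, with a 95% interval from -0.82 to 2.06 (limma, adjusted p = 0.59).

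Hspa8 carries the housekeeping work of cytosolic HSP70 and takes part in the uptake of proteins into lysosomes. It measured 721, 574 and 606 FPKM in WT mice fed chow, and 657, 692 and 606 FPKM in WT mice fed high fat. In KO mice it measured 505, 644 and 731 FPKM on chow, and 637, 692 and 728 FPKM when fed high fat. The highest and the lowest library of all were both KO mice fed chow, KO chow 3 and KO chow 1. Hspa8 exceeded the sum of Hspa1a and Hspa1b in every library, by 19.1 times in WT high fat 2 and by 162 times in WT high fat 1. Its group differences were small, and the interval of the KO against WT difference averaged over diets ran from 0.87-fold to 1.18-fold.

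Hsph1 encodes HSP110, which exchanges the nucleotide of HSP70 and helps it to dissolve aggregates. It measured 26.4, 24.6 and 23.0 FPKM in WT mice fed chow and 19.5, 24.9 and 21.0 FPKM in WT mice fed high fat. In KO mice fed chow it spread from 16.0 FPKM in KO chow 1 to 31.5 FPKM in KO chow 3, and on high fat diet it measured 27.4, 24.6 and 25.2 FPKM. The extremes thus again came from mice of the same group. Dnajb1 encodes the J-domain protein HSP40, which is induced with HSP70. It measured 10.7, 7.03 and 6.15 FPKM in WT mice fed chow and 5.12, 13.5 and 8.07 FPKM in WT mice fed high fat. KO mice held 7.68, 5.84 and 8.13 FPKM on chow and 5.31, 6.30 and 6.83 FPKM when fed high fat. For Dnajb1 the WT mice fed high fat spanned the whole range of the 12 libraries, from the lowest to the highest. The KO minus WT difference on high fat diet was -0.39 on the log2(FPKM + 1) scale, with an SE of 0.28, and it was -0.065 without WT high fat 2, the library with skin and hair markers. The part of that tissue in the result was not tested.

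Hsp90aa1 encodes HSP90α, the inducible form, and Hsp90ab1 encodes HSP90β, the constitutive form. Hsp90aa1 measured 25.04, 24.8 and 21.2 FPKM in WT mice fed chow and 16.8, 29.0 and 22.4 FPKM in WT mice fed high fat. In KO mice it measured 26.0, 24.6 and 50.8 FPKM on chow and 22.5, 31.8 and 27.5 FPKM when fed high fat. KO chow 3 stood apart from all others, which reached 31.8 FPKM at most. The KO minus WT difference on chow was 0.42 on the log2(FPKM + 1) scale (SE 0.26, adjusted p = 0.39), and 0.097 without KO chow 3, a library with high lymphoid markers. The part of lymphoid tissue in that value was not tested.

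Hsp90ab1 measured 653, 503 and 553 FPKM in WT mice fed chow and 581, 572 and 532 FPKM in WT mice fed high fat. KO mice held 431, 542.2 and 542.3 FPKM on chow and 543, 596 and 587 FPKM when fed high fat. All 3 KO mice fed high fat were thus above all 3 on chow, though the nearest pair differed by about 1 FPKM. Averaged over groups of 3, KO mice held 505 ± 64.0 FPKM (SD, n = 3) on chow and 576 ± 28.4 FPKM when fed high fat, a difference of 0.19 on the log2(FPKM + 1) scale (SE 0.12, adjusted p = 0.52). Without KO chow 1 the difference was 0.085. The ratio of Hsp90ab1 to Hsp90aa1 was 10.7 in KO chow 3 and 34.6 in WT high fat 1, with a median of 21.7.

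Bag3 joins HSP70 to HSPB8 and to the autophagy receptor p62. It measured 73.9, 61.4 and 62.4 FPKM in WT mice fed chow, and 68.4, 74.6 and 69.0 FPKM in WT mice fed high fat. In KO mice it measured 49.6, 67.6 and 72.9 FPKM on chow, and 68.4, 81.3 and 80.1 FPKM when fed high fat. The highest values were those of KO mice 2 and 3 on high fat diet, but KO high fat 1 lay below KO chow 3 and the groups overlapped. High fat diet minus chow in KO mice was 0.28 (SE 0.14, adjusted p = 0.45), between 0.98-fold and 1.51-fold, and without KO chow 1 it was 0.12. Bag3 followed Hspa8 closely, at 0.098 to 0.118 of the Hspa8 level in every library. Its partner Hspb8 was more abundant than Bag3 by 3.77 to 6.42 times.

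Hspd1 and Hspe1 encode the chaperonin ring and its lid in the mitochondrial matrix. Hspd1 measured 99.8, 95.2 and 88.3 FPKM in WT mice fed chow and 131, 109.8 and 102 FPKM in WT mice fed high fat. The groups did not overlap, with means of 94.4 ± 5.80 FPKM and 114 ± 14.9 FPKM (SD, n = 3 each). In KO mice Hspd1 measured 82.4, 84.4 and 99.5 FPKM on chow and 90.9, 92.3 and 103 FPKM when fed high fat, and these groups overlapped. Hspe1 measured 115, 96.3 and 87.5 FPKM in WT mice fed chow and 126, 109 and 104 FPKM in WT mice fed high fat. In KO mice it measured 79.5, 88.4 and 100.1 FPKM on chow and 85.9, 88.4 and 93.9 FPKM when fed high fat. On high fat diet all 3 KO mice were below all 3 WT mice, with means of 89.4 ± 4.08 FPKM against 113 ± 11.3 FPKM (SD, n = 3 each). WT high fat 1 was the highest library for both genes. The Hspe1 to Hspd1 ratio stayed between 0.912 and 1.16.

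Seen by library rather than by gene, the members did not all follow the same order, although the correlation was positive in 40 of 45 pairs. KO chow 1 was lowest for 6 of the 10, namely Hspa8, Hsph1, Hsp90ab1, Bag3, Hspd1 and Hspe1. WT high fat 1 was lowest for the other 4, Hspa1a, Hspa1b, Dnajb1 and Hsp90aa1, and yet highest for Hspd1 and Hspe1. WT high fat 2 was highest for Hspa1a, Hspa1b and Dnajb1, and KO chow 3 for Hspa8, Hsph1 and Hsp90aa1. Among these libraries, KO chow 1 and KO chow 3 held high lymphoid markers, and WT high fat 2 held skin and hair markers, whose part in these levels was not tested. Without its largest row KO chow 1 also had the lowest summed FPKM of all libraries, 477029 FPKM. Every chaperone list described below, apart from the heat shock factors, had its lowest sum in KO chow 1. How many of all genes were lowest there was not counted. WT high fat 2 also held the highest sum of 10 immediate early genes, the first responders to stimulation, at 475 FPKM against 144 to 311 FPKM in the others. WT high fat 1 held the lowest sum of slow fibre markers, 156 FPKM, and WT high fat 2 the highest, 2368 FPKM.

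**Figure D2:**
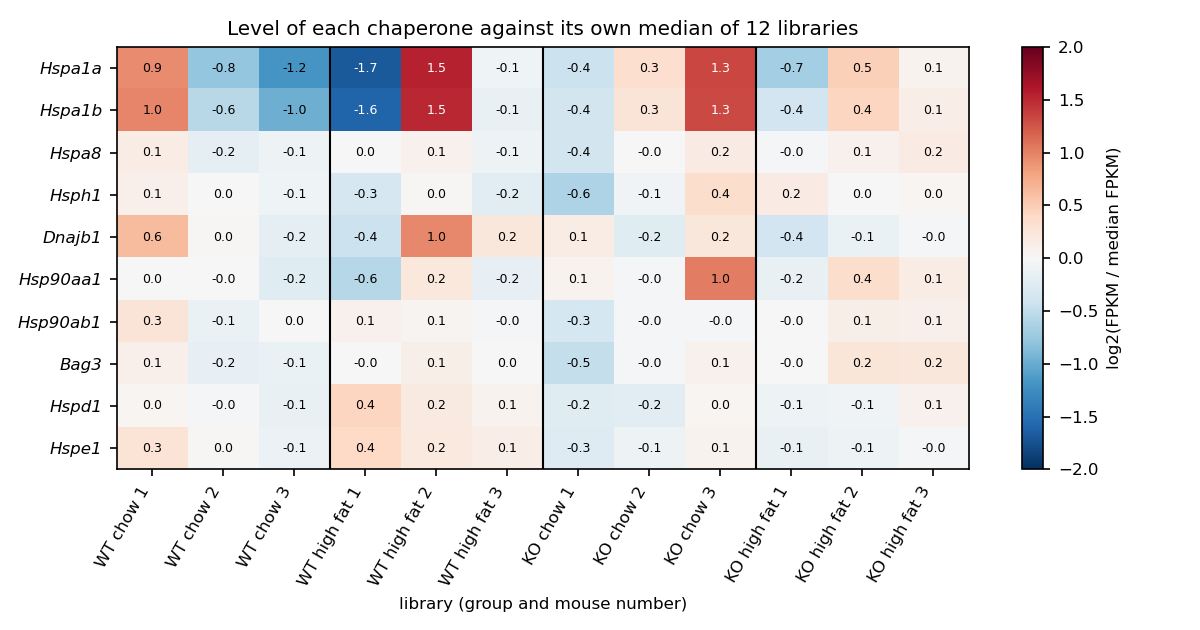
Level of each chaperone gene (rows) in each library (columns) as log2 of FPKM over the gene's median of 12 libraries; red is above and blue below the median. Hspa1a and Hspa1b hold the strongest colours, in mice of the same group as well as between groups, and WT high fat 1 is blue for Hspa1a and Hspa1b and red for Hspd1 and Hspe1.

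The design allows diet to be compared within each genotype, genotype within each diet, each of these averaged over the other factor, and the difference between the diet effects. No member passed an adjusted p of 0.05 in any of the 7 comparisons (limma on log2(FPKM + 1), Benjamini-Hochberg over 11945 genes). The tests called few genes at all. Of all genes, 0.1% passed for diet in WT mice, 0% for diet in KO mice, 0.0586% for genotype on normal chow, 0.109% for genotype on high fat diet, 0.862% for genotype averaged over diets, 0.0586% for diet averaged over genotypes and 0% for the interaction. At these shares a count of 0 of 10 is near the background. The 95% intervals hold more of the result. For 8 of the 10 members each interval, the interaction aside, stayed within 1 on the log2(FPKM + 1) scale. Hspa1a and Hspa1b were the exceptions, and for the interaction 7 of 10 stayed within it. For low genes such as Dnajb1, 1 on this scale is more than a 2-fold difference of FPKM.

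At an unadjusted p of 0.05, 1 member passed for diet in WT mice, against 8.12% of all genes. This was Hspd1, with a difference of 0.27 (SE 0.11, adjusted p = 0.56), or 1.20-fold with an interval from 1.01 to 1.43. It was 0.17 without WT high fat 1 and 0.27 without the libraries high in lymphoid markers. Only 1 of the 4 erythroid markers was listed. It measured 8.98 to 17.7 FPKM in WT mice fed high fat and 2.33 to 4.43 FPKM in those fed chow. Of the 8 fibre markers, Mb and Myh1 each had 0.73 in this comparison, and the single values of the others are not given here. The sum of all 8 overlapped, with 64456 to 80711 FPKM on high fat diet and 46950 to 69728 FPKM on chow. WT high fat 1 had the lowest adipocyte sum of all libraries. Their part in the Hspd1 value was not tested. Its groups did not overlap, which held for 13.1% of all genes in that comparison. Hspe1, its partner, was 1.14-fold higher, with an interval from 0.94 to 1.37. The other 8 members lay between -0.18 for Hsph1 and 0.26 for Hspa1a on the log2 scale.

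For diet in KO mice none of the members passed an unadjusted p of 0.05, against 11.3% of all genes, and Hsp90ab1 alone did not overlap, against 16.9%. The member differences ran from -0.41 for Hspa1a to 0.28 for Bag3. In the averaged diet comparison 1 member passed at an unadjusted p, again Hspd1 with 0.19 (adjusted p = 0.35), against 13.9% of all genes. No member passed with the replicate block, after quantile normalization, without the libraries high in lymphoid markers, or without WT chow 2 or 3, WT high fat 1 or 2, KO chow 1 or 2, or KO high fat 3. After quantile normalization, the Hspd1 value in the averaged comparison was 0.068 and Hspe1 turned from 0.095 to -0.026. The diet effects of the 2 genotypes did not differ for any member at an unadjusted p of 0.05, against 6.25% of all genes. The widest estimate in that test was -0.67 for Hspa1a, with an SE of 0.92, and a difference in the response of inducible HSP70 was not detectable with 3 mice a group.

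For genotype on normal chow none of the 10 passed an unadjusted p of 0.05, against 16.7% of all genes, and none was free of overlap, against 18.4%. On high fat diet 2 passed, Hspe1 with -0.33 (SE 0.12, adjusted p = 0.21) and Hspd1 with -0.25 (SE 0.11, adjusted p = 0.30), against 16.2% of all genes. Without WT high fat 1 these values were -0.25 for Hspe1 and -0.15 for Hspd1. Hspe1 in KO mice was 0.79 of the WT level, with an interval from 0.66 to 0.96, and it was the only member without overlap, against 23.7% of all genes. On this diet the macrophage markers summed to 38.9 to 74.8 FPKM in KO mice and 8.23 to 23.5 FPKM in WT mice, and the adipocyte markers to 341 to 464 FPKM and 3.43 to 298 FPKM. Of the 8 fibre markers, Mb and Myh1 had unadjusted p-values under 0.05 there, with -0.92 and -0.95. The single values of the other fibre markers are not given here. The sum of all 8 overlapped, at 34298 to 73525 FPKM in KO mice and 64456 to 80711 FPKM in WT mice. The part of these tissues in the Hspe1 and Hspd1 values was not tested. Averaged over diets, Hspe1 had -0.24 (SE 0.087, adjusted p = 0.12) and was the only member to pass an unadjusted p, against 26.5% of all genes. Hspd1 had -0.17 (SE 0.080, adjusted p = 0.20). Bag3 and Hspa8 were near 0 in that comparison, with 0.021 and 0.024, and an interval from 0.87-fold to 1.18-fold for each gene.

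**Figure D3:**
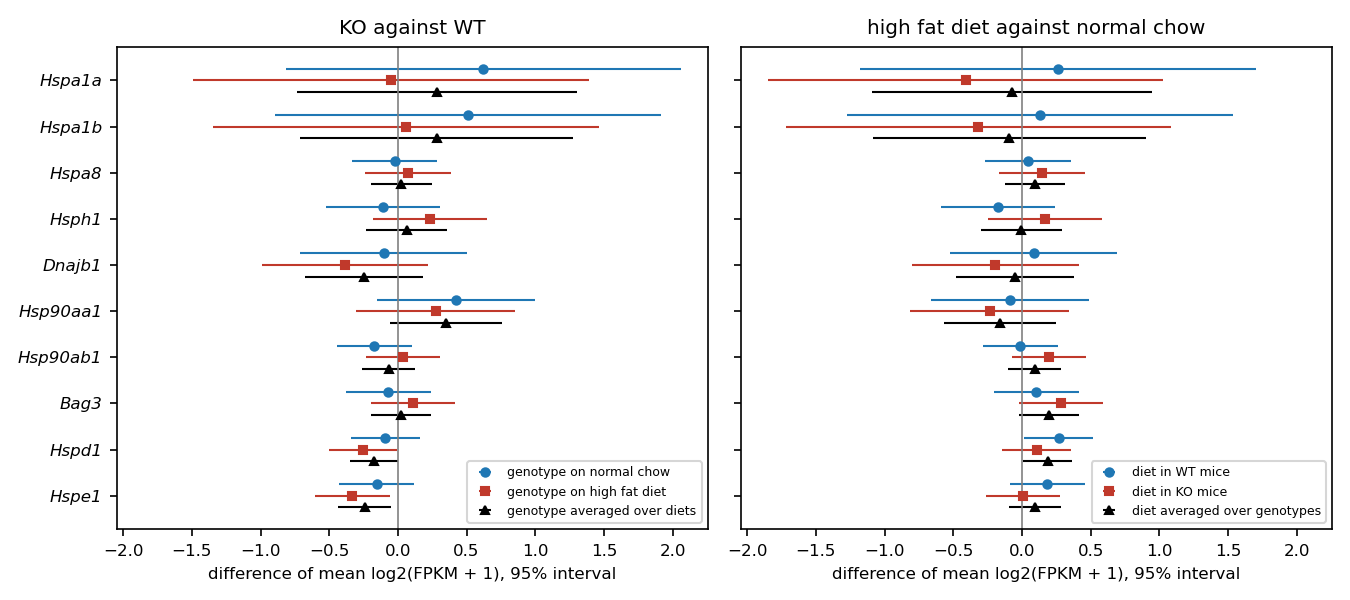
Difference of mean log2(FPKM + 1) (horizontal axis) with its 95% interval for each chaperone gene, KO minus WT on the left and high fat diet minus normal chow on the right. Most intervals cross 0; those of Hspe1 for genotype on high fat diet and averaged over diets, and of Hspd1 for diet in WT mice, averaged diet and genotype on high fat diet, do not.

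The wider chaperone network was read from 7 lists with 68 genes, all of which were expressed enough to be tested. None passed the adjusted threshold in any comparison with all libraries. Without KO chow 2, Hsf1 and Bag2 did for averaged genotype, with -0.25 and -0.37 (adjusted p = 0.039 each). In that setting 1200 of all genes were called for averaged genotype, against 103 with all libraries. With all libraries and an unadjusted p of 0.05, 3 listed genes were higher and 12 lower in KO mice averaged over diets. That was 22.1% of the 68 against 26.5% of all genes. For the averaged diet comparison 6 were higher and 2 lower, 11.8% against 13.9%. The smallest adjusted p was that of Bag2, which lets HSP70 release its clients and restrains the ubiquitin ligase CHIP. Bag2 measured 13.9, 11.2 and 12.2 FPKM in WT mice fed chow, 14.7, 10.7 and 12.6 FPKM in WT mice fed high fat, 8.24, 10.2 and 8.56 FPKM in KO mice fed chow and 9.40, 10.99 and 11.4 FPKM in KO mice fed high fat. KO minus WT averaged over diets was -0.33 on the log2 scale (SE 0.089, adjusted p = 0.073).

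Of the 4 heat shock factor genes, Hsf1, the main activator of the members, had -0.20 in KO mice averaged over diets (SE 0.065, adjusted p = 0.097), with 22.9 to 27.4 FPKM in WT libraries and 19.1 to 23.1 FPKM in KO libraries. Hsf4 had 0.30 for diet in KO mice (adjusted p = 0.44). Of the 8 other HSP70 and HSP110 genes, 1 had an unadjusted p under 0.05 for genotype averaged over diets, against 26.5% of all genes. It was Hspa12a, with 0.44 (adjusted p = 0.15). No gene of the list was higher at that p without the libraries high in lymphoid markers, or without WT chow 1, WT high fat 1, KO chow 1, KO chow 2, KO high fat 1 or KO high fat 3. Hspa1l, a relative of Hspa1a in the same gene cluster, had -0.33 (adjusted p = 0.21). Among 9 other J-domain proteins none passed in any comparison, and the nearest were Dnajb5, with -0.35 for genotype on chow (adjusted p = 0.30), and Dnajc7, with 0.20 for averaged diet (adjusted p = 0.39).

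Of the 14 HSP90 co-chaperones, Fkbp5, a target of glucocorticoid signalling that acts with HSP90 on steroid receptors, had -0.53 for averaged diet (SE 0.15, adjusted p = 0.20). In WT mice Fkbp5 measured 12.5, 15.2 and 11.3 FPKM with chow and 8.86, 11.8 and 8.70 FPKM with high fat diet, and these groups overlapped. It measured 14.3, 21.4 and 23.6 FPKM in KO mice fed chow and 15.6, 9.78 and 10.6 FPKM in KO mice fed high fat, which overlapped as well. Unc45b, which folds myosin with HSP90, had -0.34 for genotype on chow (adjusted p = 0.28). Of the 11 BAG family genes and BAG3 partners besides Bag2, Hspb8 had 0.56 for genotype on high fat diet (adjusted p = 0.24). It measured 277, 282 and 259.9 FPKM in WT mice on that diet and 367, 522 and 340.04 FPKM in KO mice, without overlap, as did 23.7% of all genes. On chow the Hspb8 difference was 0.13 (adjusted p = 0.75). Hspbp1, an exchange factor of HSP70, had 0.14 for averaged diet (adjusted p = 0.27). The 8 subunits of TRiC, the cytosolic chaperonin, had no unadjusted p under 0.05 in any comparison. Their values for diet in KO mice were all above 0, against 56.0% of all genes, but only 2 of 8 were after quantile normalization, with a median of -0.016. They were led by Tcp1 with 0.18 (adjusted p = 0.52) and Cct2 with 0.16 (adjusted p = 0.46).

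The list nearest to Hspd1 and Hspe1 holds 14 other mitochondrial chaperones and proteases. All 14 had a lower mean in KO than in WT mice averaged over diets, with a median of -0.17 against -0.022 over all genes, of which 44.4% were positive. Of the 14, 7 had an unadjusted p under 0.05, against 26.5% of all genes, and none an adjusted one. They include Hspa9, the mitochondrial HSP70, with -0.24, Dnajc19, a part of the import motor, with -0.27, and the protease subunit Clpp with -0.22. Clpp also had -0.32 on high fat diet alone (SE 0.12, adjusted p = 0.21). All 14 stayed below 0 with each library left out and under every alternative setting. The replicate block, no filter and no trend leave these values as they were and could not turn them. The number with an unadjusted p under 0.05 went down to 1 without WT chow 1 and to 2 without WT high fat 1. It was 3 without KO chow 1, a library high in lymphoid markers, and 3 without KO high fat 2. Without the 3 libraries high in lymphoid markers the median was -0.18. That fit leaves 1 KO mouse on chow, so only the median is given for it. For averaged diet 13 of the 14 had a positive value, against 52.6% of all genes, with a median of 0.13. Of these, 3 had an unadjusted p under 0.05, against 13.9% of all genes, and 0 did with the replicate block, without the libraries high in lymphoid markers, or without WT chow 2, WT high fat 1, KO chow 1 or KO high fat 3. The median was 0.041 after quantile normalization and 0.065 without WT high fat 1. Macrophage markers summed to between 35.7 and 74.8 FPKM in KO mice and between 8.23 and 40.4 FPKM in WT mice, and adipocyte markers to between 288 and 627 FPKM in KO mice and between 3.43 and 309 FPKM in WT mice. Their part in the lower mitochondrial values was not tested.

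**Figure D4:**
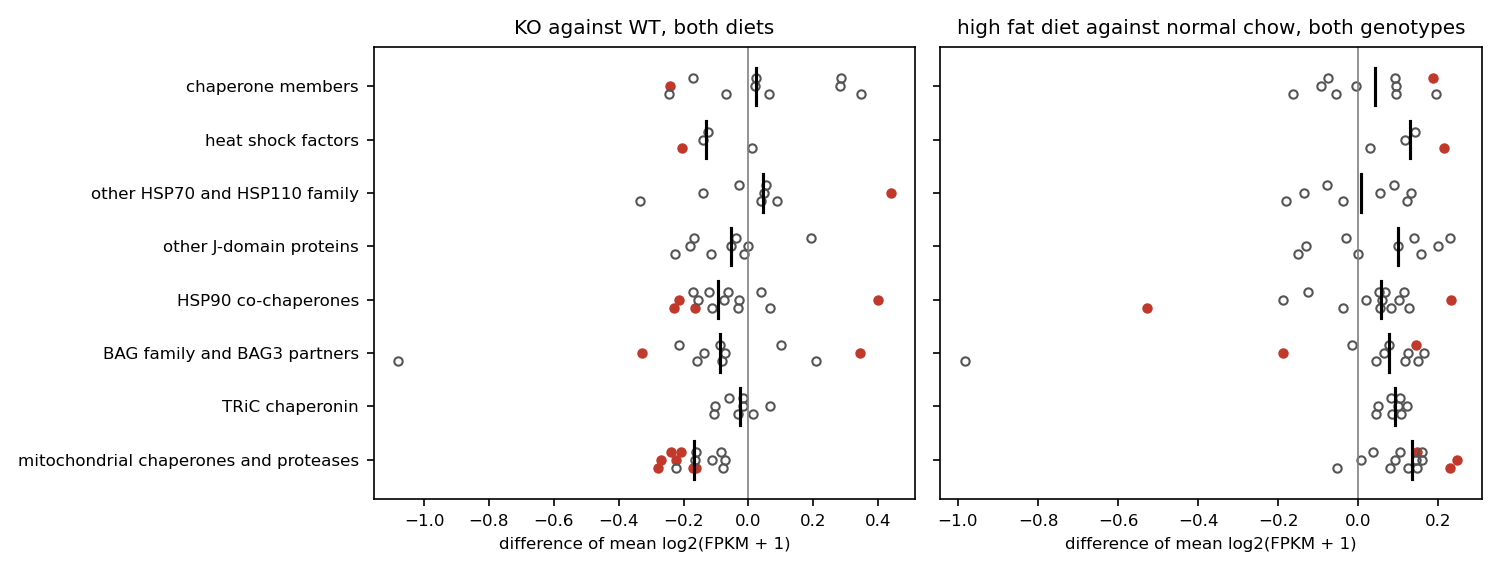
Difference of mean log2(FPKM + 1) (horizontal axis) for each gene of the members and of the 7 chaperone lists (rows), KO minus WT averaged over diets on the left and high fat diet minus chow averaged over genotypes on the right; filled points have an unadjusted p under 0.05 and black bars are list medians. All 14 mitochondrial genes lie left of 0 for genotype, and 13 of them right of 0 for diet.

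Across the 12 mice the members moved in pairs, which were compared on log2(FPKM + 1) over all 45 pairs with 100000 permutations each and Benjamini-Hochberg adjustment. The correlation was positive in 40 pairs, and 10 had an adjusted p under 0.05 by Pearson's r. In 6 it held by Spearman's rho as well. The points share library scaling, and samples of all 4 groups enter. The same counts were not made for pairs of other genes, and whether they are particular to the members was not tested. Hspa1a and Hspa1b had r = 0.995 (permutation p = 1e-05, the smallest these permutations can give, adjusted p = 0.00045) and rho = 1.00, and they share most of their sequence.

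Hspa8 and Bag3, the partners in client handover, had r = 0.93 (permutation p = 6e-05, adjusted p = 0.0014) and rho = 0.83 (permutation p = 0.0014, adjusted p = 0.021). Without the 2 libraries farthest from the Hspa8 median r was 0.79, and with group means removed it was 0.95. Hspd1 and Hspe1, the head-to-head pair, had r = 0.90 (permutation p = 0.00011, adjusted p = 0.0017) and rho = 0.87 (permutation p = 0.00051, adjusted p = 0.011), with r = 0.78 without the 2 farthest libraries and r = 0.88 with group means removed. Hsp90ab1 and Bag3 had r = 0.85 (permutation p = 0.0012, adjusted p = 0.011) and rho = 0.77 (permutation p = 0.0047, adjusted p = 0.035). Their r was 0.77 without the 2 farthest libraries and 0.56 without the 3 libraries high in lymphoid markers.

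Hsp90aa1 followed the inducible HSP70 genes rather than Hsp90ab1. Its r was 0.77 with Hspa1b (permutation p = 0.0019, adjusted p = 0.012) and 0.76 with Hspa1a (permutation p = 0.0018, adjusted p = 0.012), and rho was 0.80 with each (permutation p = 0.0030, adjusted p = 0.027). These were 0.76 and 0.75 without the 2 farthest libraries. With Hsp90ab1 its r was -0.017 (permutation p = 0.95, adjusted p = 0.95) and rho 0.17 (permutation p = 0.61, adjusted p = 0.67), and r without the 2 farthest libraries was 0.22. The difference between these correlations was not tested. Hspa1a and Hspd1, both promoters of which hold the searched units, had r = -0.020 (permutation p = 0.95, adjusted p = 0.95) and rho = 0.17 (permutation p = 0.61, adjusted p = 0.67), with r = 0.41 without the 2 farthest libraries.

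**Figure D5:**
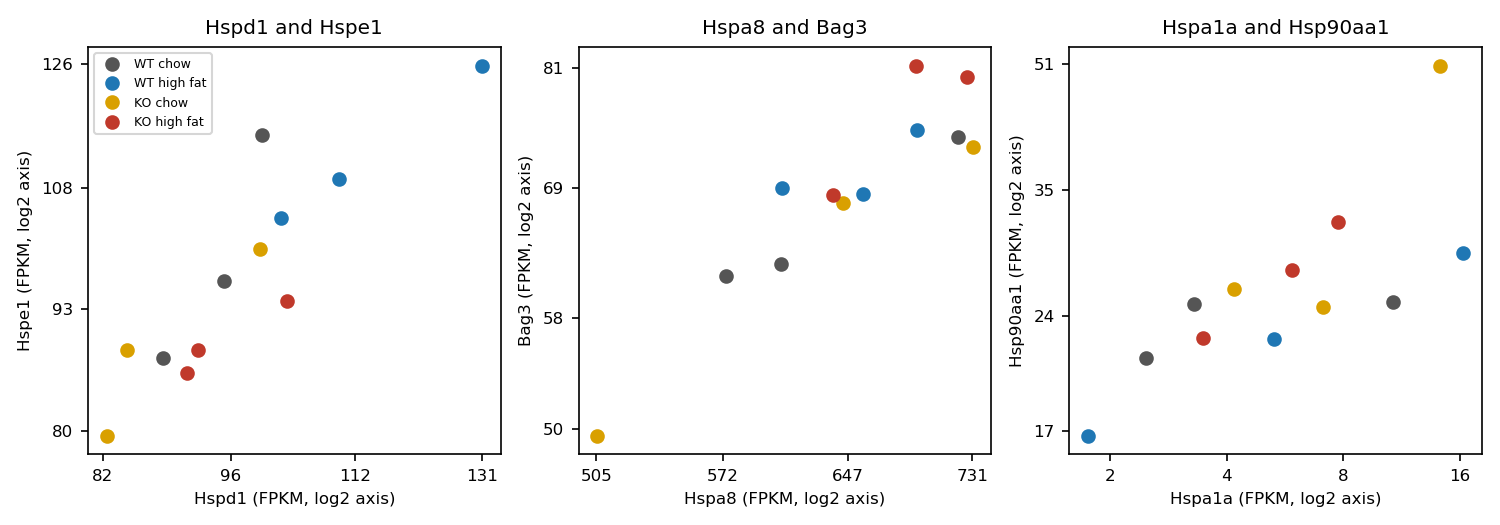
FPKM of 3 gene pairs in the 12 libraries, on log2 axes, coloured by group. Hspe1 rises with Hspd1 and Bag3 with Hspa8 across all groups, and in the third panel KO chow 3 stands highest for Hsp90aa1 at 50.8 FPKM.

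Outside the members, the genes most like the mean of the standardised Hspa1a and Hspa1b levels were named by their Pearson correlation over the 12 libraries, as a description. They were Klf10 at 0.90, Otud1 at 0.87, Jund at 0.86, Atf3 at 0.84 and Sik1 at 0.83. Klf10, Jund and Atf3 encode transcription factors that respond rapidly to stimulation. All 5 genes were highest in WT high fat 2, where Atf3 reached 13.2 FPKM from a lowest value of 1.15 FPKM. Among the genes most like the mean of all 10 members was Pdlim5, a Z-disc protein, at 0.86. Zfp346 at 0.84, Pla2g12a at 0.83 and Otud1 at 0.83 were also among them. These genes were chosen from 11945 for their correlation, which carries no test here. Of the 10 immediate early genes, none passed an adjusted p of 0.05 in any comparison. All 10 had a higher mean on high fat diet in WT mice, against 46.4% of all genes. Their median was 0.51, and none of them had an unadjusted p under 0.05 there. The 10 genes were measured in the same mice and are not separate cases. The median was 0.17 without WT high fat 2, 0.95 without WT high fat 1 and 0.51 without the libraries high in lymphoid markers. In KO mice 6 of 10 were higher, against 56.0% of all genes, with a median of 0.082. That median was -0.16 without KO chow 2 and -0.35 without KO high fat 2. Nr4a1 had -0.68 for genotype on high fat diet (SE 0.24, adjusted p = 0.20), and Egr2 had 0.33 for genotype averaged over diets (SE 0.15, adjusted p = 0.17).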

How the data were processed

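Proximal hind limb muscle RNA of 12 mice was sequenced by the authors on a HiSeq2000 with paired-end reads, from libraries that do not mark strand. The submitters' processing notes name TopHat2 2.0.8b, Cuffdiff 2.1.1 and the build mm10 (GRCm38). The authors deposited 1 FPKM value per gene row and library, 23179 rows each, without pooling mice. The unit is inferred from Cuffdiff and the values. Nothing says whether mice were handled in batches, and p-values measure the spread between these samples.

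Groups were taken from the titles. Genes with at least 1 FPKM in at least 3 libraries were kept, 11945 in all. The log2(FPKM + 1) scale, which understates changes of low genes, was fitted by limma (version 3.58.1, R 4.3.3) with 4 group means, 8 residual degrees of freedom and a variance trend on intensity, and p-values were adjusted by Benjamini-Hochberg with a threshold of 0.05. The code was tested on simulated data. SciPy 1.17.1, NumPy 2.4.6 and pandas 2.3.3 under Python 3.11.15 gave the correlations. Positions are from the GENCODE annotation of GRCm38, and promoters from RefSeq GRCm38.p6.

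The members and lists were chosen with earlier results of these data known. Named are all 10 members, Cryab and Hspb2, from each pathway list the genes past the adjusted threshold and the 2 with the smallest p, and the 5 genes most like the members, of which 1 is not reported here. Hspb8, Hspa9 and the values of Clpp averaged over diets were added after their values were seen. The fibre markers Mb and Myh1 were also named outside this rule. Alternatives were a pseudocount of 0.1, no filter, a block on replicate number, a fit of just the 2 groups, other scalings, no trend, Hspa1a and Hspa1b added, and libraries left out.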

Additional observations from a re-analysis of the deposited data

How the results depend on the processing

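No member had an adjusted p under 0.107 in any of 1144 values under the alternatives, so no call was gained. Of 544 member values with a single setting changed, 520 kept their direction. Many of these could not turn. The replicate block, no filter, no trend and a fit of just the 2 groups leave the log2 differences as they were. After quantile normalization the log2 differences turned to -0.16 (Hspa8, diet in WT), -0.043 (Hspa8), -0.064 (Hspd1) and -0.17 (Hspe1) for diet in KO, 0.11 (Hspa8), 0.043 (Bag3) and 0.047 (Hspd1) for genotype on chow, -0.011 (Hspa1b, genotype on high fat diet), 0.057 (Hsp90ab1, genotype averaged), and -0.10 (Hspa8), -0.064 (Hsp90ab1) and -0.026 (Hspe1) for averaged diet. Without the 3 libraries high in lymphoid markers, which leaves 1 KO mouse on chow that is assumed to vary like the rest, they turned to -0.036 (Hspa1b) and -0.023 (Hspa8) for diet in WT, 0.13 (Hsp90aa1) and 0.057 (Dnajb1) for diet in KO, 0.038 (Hsp90aa1), -0.0066 (Hsp90ab1) and 0.040 (Dnajb1) for averaged diet, and 0.18 (Hsp90aa1) and 0.035 (Dnajb1) for the interaction. Hspe1 for diet in KO was -0.00496 with size factors, and Hspa1a for genotype on high fat diet was 0.014 with a pseudocount of 0.1 and 0.043 when added to Hspa1b. The cause was not tested.

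With each library left out in turn, 535 of 600 member values kept their direction, and the lowest and highest values of those with a turn are as follows. For averaged diet these ranges were -0.22 to 0.096 (Dnajb1), -0.25 to 0.00072 (Hsp90aa1), -0.42 to 0.25 (Hspa1a), -0.44 to 0.23 (Hspa1b) and -0.13 to 0.11 (Hsph1). For averaged genotype these ranges were -0.034 to 0.10 (Bag3), -0.034 to 0.63 (Hspa1a), -0.035 to 0.63 (Hspa1b), -0.036 to 0.097 (Hspa8) and -0.047 to 0.19 (Hsph1). For the interaction these ranges were -0.58 to 0.038 (Dnajb1), -0.34 to 0.18 (Hsp90aa1), -1.31 to 0.015 (Hspa1a), -1.09 to 0.25 (Hspa1b) and -0.049 to 0.22 (Hspa8). For diet in WT these ranges were -0.23 to 0.39 (Dnajb1), -0.27 to 0.10 (Hsp90aa1), -0.098 to 0.089 (Hsp90ab1), -0.43 to 0.90 (Hspa1a), -0.56 to 0.77 (Hspa1b) and -0.023 to 0.14 (Hspa8). For diet in KO these ranges were -0.42 to 0.089 (Hsp90aa1), -0.78 to 0.00079 (Hspa1a), -0.66 to 0.10 (Hspa1b), -0.0037 to 0.26 (Hspa8), -0.073 to 0.091 (Hspe1) and -0.080 to 0.39 (Hsph1). For genotype on chow these ranges were -0.18 to 0.095 (Bag3), -0.25 to 0.11 (Dnajb1), -0.14 to 0.12 (Hspa8) and -0.33 to 0.14 (Hsph1). For genotype on high fat diet these ranges were -0.0028 to 0.077 (Hsp90ab1), -0.69 to 0.64 (Hspa1a) and -0.58 to 0.75 (Hspa1b). The numbers of genes called ran from 1 (without WT chow 1) to 32 (without WT high fat 2) for diet in WT, 0 to 4 (without KO chow 2) for diet in KO, 4 (without WT chow 1) to 14 (without WT chow 3) for genotype on chow, 4 (without KO high fat 2) to 82 (without WT high fat 3) for genotype on high fat diet, 10 (without WT chow 1) to 1200 (without KO chow 2) for averaged genotype, 1 (without WT chow 3) to 18 (without WT high fat 1) for averaged diet and 0 to 1 (without WT chow 3) for the interaction.

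The numbers of genes called also moved with other settings. No comparison had every same-number correlation above 0.1, and the main fit did not pair mice by replicate number. With 3 mice a group these correlations cannot show whether the mice were paired. With the replicate block, 7 genes were called for diet in WT, 4 for genotype on chow, 5 for genotype on high fat diet, 40 for averaged genotype and 1 for averaged diet. With only the 2 groups compared they were 3 for diet in WT, 15 for diet in KO, 4 for genotype on chow and 8 for genotype on high fat diet. Without a filter they were 6 for diet in KO, 24 for genotype on high fat diet, 42 for averaged genotype and 1 for the interaction. After quantile normalization they were 9, 26 and 200 for diet in KO, genotype on high fat diet and averaged genotype, and without the trend 2 for diet in KO. Without the libraries high in lymphoid markers they were 1, 11 and 1 for diet in WT, averaged genotype and averaged diet.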
